A study of Arabidopsis thaliana with 20 samples.

Results

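GI, COR27 and AT1G56300 are 3 Arabidopsis thaliana genes grouped here because all of them stood lower in 5 d leaves of a myb3r triple mutant than in wild type; they were chosen by those measured 5 d leaf signals. Each has 1 probe set, so the group is 3 of the 13513 probe sets that carry exactly 1 gene name, out of 22746 that are not array controls. GI is GIGANTEA (AT1G22770), COR27 is cold regulated gene 27 (AT5G42900), and AT1G56300 has a locus name only.

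The series holds 20 Affymetrix arrays of RNA from plants kept in continuous light at 22 °C on agar with 2% sucrose. First leaf pairs of the Columbia wild type and of a triple mutant, myb3r1 myb3r3 myb3r5, gave 2 arrays each at 5 d and 3 each at 15 d. The other 10 arrays are whole 9 d seedlings, 1 of wild type and 1 of each of 9 mutants. These were myb3r1, myb3r3, myb3r4, myb3r5, myb3r1 myb3r4, myb3r3 myb3r5, myb3r1 myb3r3 myb3r5, myb3r3 myb3r4 myb3r5 and the quadruple myb3r1 myb3r3 myb3r4 myb3r5. MYB3R genes encode MYB transcription factors known for binding promoters of genes used at the G2/M step of the cell cycle. The mutant alleles, the number of plants per sample and the hour of harvest are not given in the sources used here, and the genotypes are as labelled, since the 4 mutated genes have no named probe set. Nothing says that the replicates came from separate cultures, so in leaves a p-value measures a spread between samples that may be technical. In seedlings, with 1 array per genotype, a limma p-value rests on departures from an additive fit of the mutated genes. A permutation p-value there treats the genotypes as exchangeable, though they share mutated genes. Neither measures a spread between replicates.

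The circadian clock of Arabidopsis is a loop of transcription factors, some active near dawn and others near dusk, that goes on cycling in continuous light. GI encodes a large protein of the evening phase that stabilises the light-sensing F-box protein ZEITLUPE and promotes flowering through CONSTANS. COR27 encodes a small nuclear protein that represses evening clock genes, and its transcript is induced by cold and by light. AT1G56300 has no function in the annotation used here, and no time course was measured, so the link of the genes to the clock rests on background and was not checked. For genes of this kind a level also depends on the hour of sampling, which cannot be told apart from the group.

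Signals are linear MAS5 values scaled to a common trimmed mean of 500, and a signal under a floor of 33.1 was set to that floor before log2 was taken. Leaf identity was checked on listed marker genes. The summed signal of 3 photosynthesis genes ran from 6142 to 62290 on leaf arrays. On seedling arrays that sum ran from 44930 to 57505, so it does not set leaves apart from seedlings. Signals of 2 root genes summed to 14.3 to 92.0 on leaf arrays against 241 to 389 on seedling arrays. Mitotic marker genes (AUR1, AUR2 and BUBR1) summed to 3862 to 5682 at 5 d, to 52.0 to 148 in 15 d wild type and to 1418 to 1482 in the 15 d triple mutant. One 5 d array stood apart over the 1128 probe sets with a wild-type rise with age above 3 log2 units. There mutant replicate 2 lay at a median of 1.15 above the 5 d wild-type mean, against 0 on mutant replicate 1. The 5 d wild-type arrays also had 0, but their own mean is the reference, so only the mutant arrays compare.

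In 5 d leaves all 3 genes stood lower in the triple mutant, and COR27 stood lowest relative to wild type. These values chose the genes, so they are a description without a test. COR27 signals were 229 and 213 on the wild-type arrays and 39.3 and 30.8 on the mutant arrays, the last of them under the floor. That is a log2 difference of -2.62, or 6.13-fold lower. Wild-type levels of COR27 lay close together, and the mutant was at or near the limit of measurement. AT1G56300 signals were 1143 and 831 in wild type and 202 and 241 in the mutant, a log2 difference of -2.14 or 4.41-fold lower. GI signals were 119 and 123 in wild type and 49.4 and 63.4 in the mutant, a log2 difference of -1.11 or 2.16-fold lower. For each gene both mutant arrays lay below both wild-type arrays, as they did for 19.1% of the 16558 probe sets tested in leaves.

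Among all tested probe sets, 2 had a more negative 5 d difference than COR27, 7 than AT1G56300 and 79 than GI. Without mutant replicate 2, the array that stood apart, the log2 differences were -2.49 for COR27, -2.27 for AT1G56300 and -1.29 for GI. Without mutant replicate 1 they were -2.74, -2.01 and -0.93. The mutant also had more summed signal of the 3 photosynthesis genes at 5 d (34128 to 39438 against 22934 to 29081) and of the 3 mitotic genes (4742 to 5682 against 3862 to 4572), whose part in the difference was not tested. Taken singly, LHCB4.1 and AUR1 overlapped between genotypes, while RCA, LHCB4.2, AUR2 and BUBR1 lay higher on both mutant arrays. The share of all probe sets with that order was not counted. In whole organs, fewer cells of a type and less RNA per cell cannot be told apart.

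**Figure D1:**
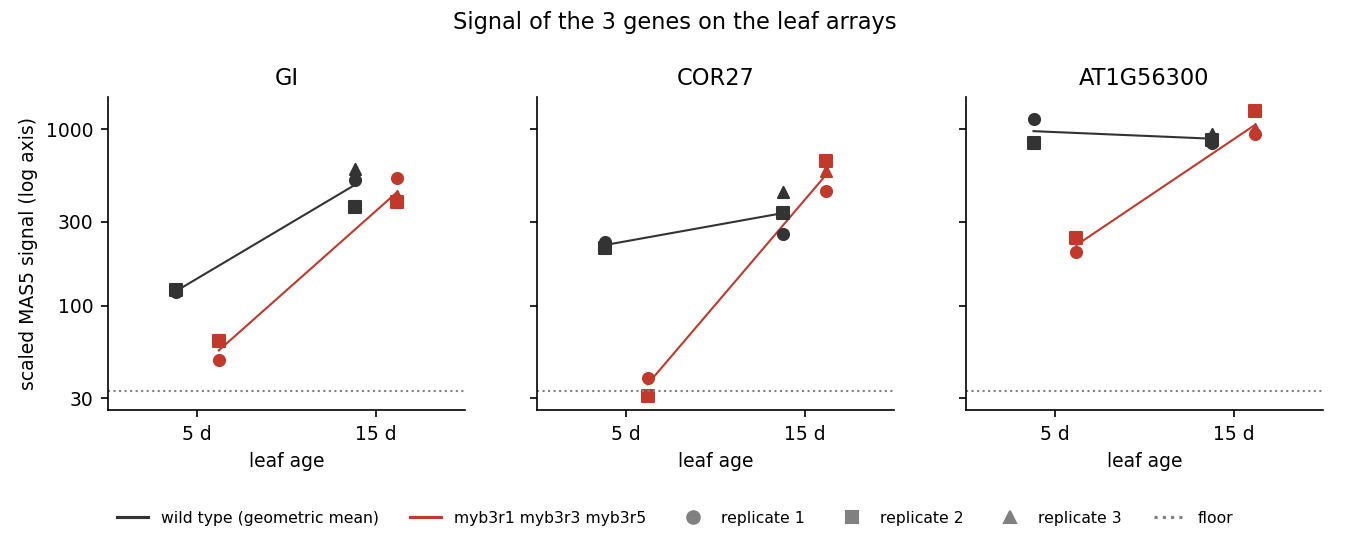
Scaled MAS5 signal (log axis) of GI, COR27 and AT1G56300 on the 10 leaf arrays by age, with points for arrays, marker shape for replicate number, lines through geometric group means and a dotted line at the floor of 33.1. At 5 d the mutant points lie below the wild-type points for each gene, and at 15 d the genotypes overlap for GI and AT1G56300 while the mutant points of COR27 lie above those of wild type.

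In 15 d leaves, on arrays that played no part in choosing the genes, none of the 3 was lower in the triple mutant by the test. GI signals were 516, 365 and 597 in wild type and 531, 389 and 419 in the mutant, and the genotypes overlapped. The wild-type mean was 493 ± 118 (SD, n = 3) and the mutant mean 446 ± 74.7 (SD, n = 3), with a log2 change of -0.13 (95% interval -0.70 to 0.45) and an adjusted p of 0.95 in limma. For comparison, 4.06% of tested probe sets had all 15 d mutant arrays below all wild-type arrays. Without wild-type replicate 3, the highest of the 15 d arrays, the GI change was 0.027.

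COR27 went the other way in sign. Its signals were 256, 336 and 439 in 15 d wild type and 446, 659.6 and 577 in the mutant. All mutant arrays of COR27 lay above all wild-type arrays, which 5.65% of tested probe sets also showed. The wild-type mean was 344 ± 92.0 (SD, n = 3) and the mutant mean 561 ± 108 (SD, n = 3), a 1.65-fold difference. The log2 change was 0.72 (95% interval 0.13 to 1.32), which did not pass adjustment over all probe sets in limma (unadjusted p = 0.023, adjusted p = 0.46). Compared by replicate number, the mutant was higher in all 3 pairs, by 0.80, 0.97 and 0.39 log2 units. With samples paired in this way the adjusted p was 0.073 in limma.

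AT1G56300 signals at 15 d were 838, 871 and 945 in wild type and 941, 1261 and 1001 in the mutant. The lowest mutant array fell inside the wild-type range. The log2 change of AT1G56300 was 0.26 (95% interval -0.19 to 0.71; adjusted p = 0.79 in limma). As background, limma called 0.725% of tested probe sets higher and 0.0242% lower in the 15 d triple mutant, 124 in all, or 779 with samples of the same number paired. Without mutant replicate 1, which raised the calls to 1310, the changes were -0.26 for GI, 0.88 for COR27 (adjusted p = 0.094) and 0.35 for AT1G56300. At 15 d the mitotic genes AUR1, AUR2 and BUBR1 were all called higher in the mutant, and the photosynthesis sum ranged from 6142 to 47683 against 23536 to 62290 in wild type. The part of these genes in the COR27 difference was not tested.

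The arrays within a 15 d group did not rank the 3 genes alike. COR27 and AT1G56300 were both highest on wild-type replicate 3 and lowest on replicate 1, and in the mutant both were highest on replicate 2 and lowest on replicate 1. GI was highest on wild-type replicate 3 too, but lowest on replicate 2, and in the mutant its order was the reverse of that of COR27 and AT1G56300.

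Leaf age was compared over the mean of both genotypes and within each. The 5 d mutant arrays that chose the genes enter the mean over genotypes, so age differences of the 3 genes are a description with no test. Over both genotypes the log2 difference of 15 d over 5 d was 2.49 for GI (SE 0.20), 2.27 for COR27 (SE 0.21) and 1.06 for AT1G56300 (SE 0.16). The SE do not allow for the choice of the genes. As background, limma called 31.6% of tested probe sets higher and 33.9% lower with age.

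GI was higher with age in both genotypes. In wild type its mean went from 121 ± 2.75 (SD, n = 2) to 493, 3.99-fold, and in the mutant from 56.4 ± 9.91 (SD, n = 2) to 446, 7.90-fold. COR27 was 1.52-fold higher with age in wild type, from 221 ± 10.8 (SD, n = 2), and 15.4-fold higher in the mutant, from 35.0 ± 5.96 (SD, n = 2). For GI and COR27 all 15 d arrays lay above all 5 d arrays in each genotype, as for 34.5% of tested probe sets in wild type and 33.5% in the mutant, while 36% had the opposite order in wild type. AT1G56300 had a mean of 987 ± 220.3 (SD, n = 2) in 5 d wild type and 885 ± 54.7 (SD, n = 3) at 15 d, ages that overlapped. In the mutant the mean of AT1G56300 was 222 ± 27.7 (SD, n = 2) at 5 d and 1068 ± 169.9 (SD, n = 3) at 15 d, 4.79-fold higher. Within wild type the age difference of AT1G56300 was -0.14 log2 units, so its 1.06 over both genotypes lay in the mutant arrays.

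In 9 d seedlings the 3 genes did not stand low in the myb3r1 myb3r3 myb3r5 triple mutant. Its signals over those of the wild-type seedling were 346 against 339 for GI, 324 against 220.1 for COR27 and 886 against 895 for AT1G56300. The log2 ratios were 0.029, 0.56 and -0.015, from 1 array each and so without a test. The sum of the myb3r1, myb3r3 and myb3r5 terms in a limma fit over all 10 seedling arrays was -0.091 for GI (95% interval -0.48 to 0.30), 0.41 for COR27 (-0.18 to 0.998) and -0.026 for AT1G56300 (-0.38 to 0.33). None of these passed (adjusted p = 0.87, 0.47 and 0.98), against 0.132% of 19626 probe sets called higher and 0.0102% lower for that sum. Tissue and age both differ from those of the 5 d leaves, and the effects were not tested against each other.

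GI and AT1G56300 shared their lowest and some of their highest seedling genotypes. GI ran from 199.6 in myb3r1 myb3r4 and 242 in myb3r1 to 509 in myb3r3 myb3r5 and 524 in myb3r3, with a median of 358 over the 10 arrays. AT1G56300 was lowest in the same genotypes, at 636 in myb3r1 myb3r4 and 783 in myb3r1, and reached 1193 in myb3r3 and 1239.9 in myb3r3 myb3r4 myb3r5, with a median of 983. In the triple and quadruple mutants that lack myb3r1 together with myb3r3 and myb3r5, GI was at 346 and 345, near the 339 of wild type. AT1G56300 was at 886 and 1008 there, against 895 in wild type. Its quadruple value was 1.13-fold over wild type and its myb3r1 value 0.88-fold.

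COR27 had another order. Wild type was its lowest seedling at 220.1, followed by myb3r1 myb3r4 at 246, and all 9 mutants lay above wild type. The highest were myb3r3 myb3r4 myb3r5 at 469 and the quadruple mutant at 409, with myb3r1 at 357 and a median of 341. A single wild-type array sets every ratio over wild type, so the low wild-type value of COR27 has no replicate check. Over the 10 arrays the SD of log2 signal was 0.44 for GI, 0.33 for COR27 and 0.28 for AT1G56300, against a median of 0.21 over the tested probe sets.

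**Figure D2:**
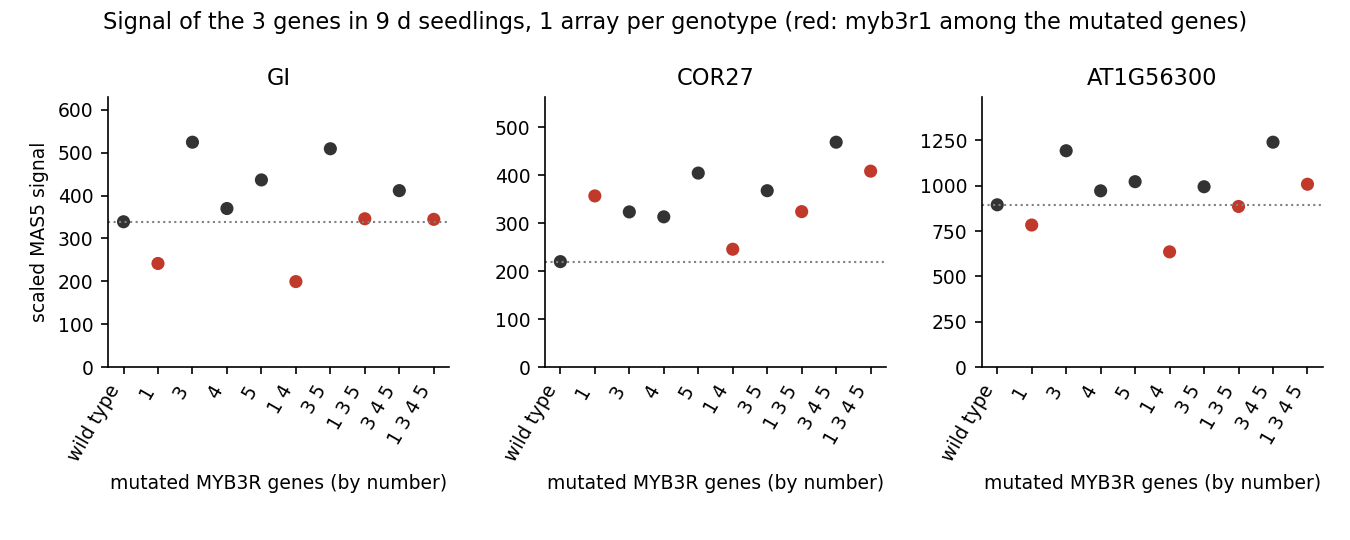
Scaled MAS5 signal of GI, COR27 and AT1G56300 on the 10 seedling arrays, 1 point per genotype, with red points where myb3r1 is among the mutated genes and a dotted line at the wild-type value. GI and AT1G56300 are lowest in myb3r1 and myb3r1 myb3r4, whereas COR27 is lowest in wild type.

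The additive terms of single alleles gave no call for the 3 genes. The myb3r1 term of GI was -0.60 (SE 0.12, 95% interval -0.87 to -0.34; unadjusted p = 0.00079, adjusted p = 0.37 in limma), and 73 of 19626 probe sets had a more negative one. That of AT1G56300 was -0.36 (SE 0.10; unadjusted p = 0.0081, adjusted p = 0.40). COR27 had a myb3r1 term of -0.069 (95% interval -0.47 to 0.33). For the myb3r1 term limma called 0% of probe sets in either direction, with 1948 at an unadjusted p under 0.05.

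The myb3r3 term was positive for GI (0.39, SE 0.14, adjusted p = 0.42) and AT1G56300 (0.28, SE 0.13, adjusted p = 0.50), and COR27 had 0.079, with 0.0051% of probe sets called higher for that term. The myb3r4 terms were -0.17, 0.10 and 0.035 for GI, COR27 and AT1G56300, with 0.0153% of probe sets called lower. The largest myb3r5 term was that of COR27 at 0.40 (SE 0.21, adjusted p = 0.70), with 0.12 for GI and 0.057 for AT1G56300. An additive fit leaves 5 residual degrees of freedom and takes alleles as independent of each other. Apart from the myb3r3 and myb3r5 single mutants, every genotype carries both of these mutations or neither. How an effect is split between the myb3r3 and myb3r5 terms therefore rests on 1 array of each single mutant.

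**Figure D3:**
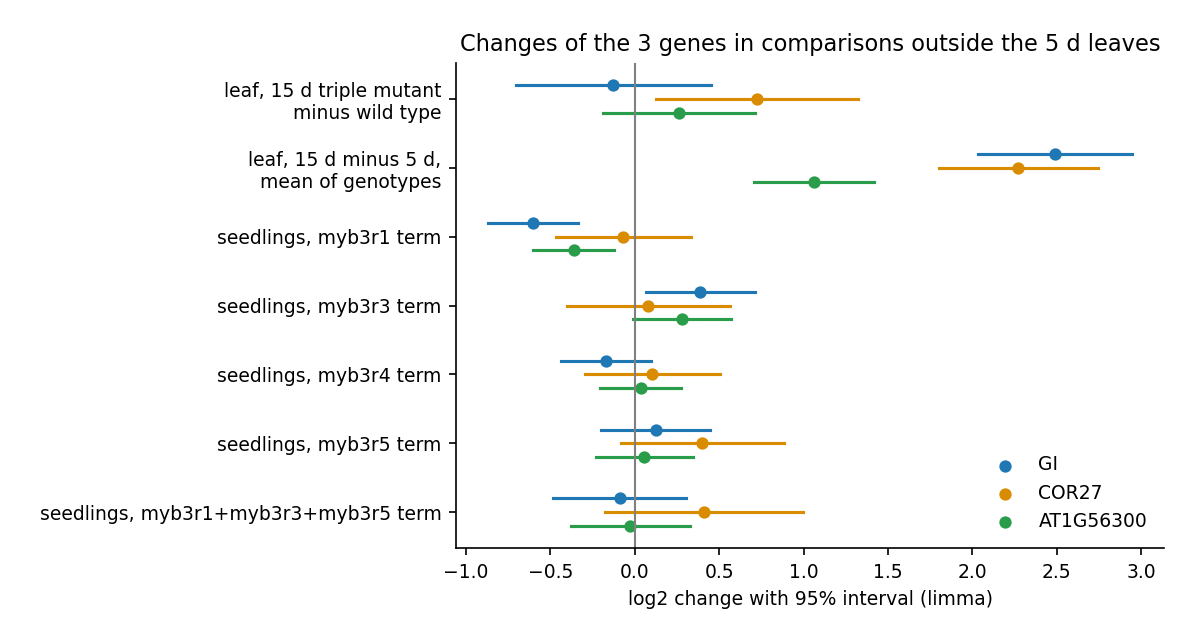
Log2 changes of the 3 genes with 95% intervals from limma, for the 15 d genotype difference, the age difference over both genotypes, the allele terms in seedlings and the sum of 3 of them. The age intervals are no test and are not read against 0, since 5 d arrays that chose the genes enter them. Among the others, the intervals of COR27 at 15 d and of the GI and AT1G56300 myb3r1 and GI myb3r3 terms stand clear of 0. None of these passed adjustment over all probe sets.

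How far the genes moved together outside the 5 d leaves was read from the 10 seedling arrays, for 3 pairs. GI and AT1G56300 had Pearson's r = 0.88 (permutation p = 0.0011, adjusted p = 0.0032) and Spearman's rho = 0.79 (permutation p = 0.0087, adjusted p = 0.026). Of 17135 probe sets with signals over the floor on 10 arrays or more, 3 correlated more with GI over these arrays than AT1G56300 did, and the median r to GI was 0.012. Without myb3r1 and myb3r1 myb3r4, the arrays farthest from the median of GI, r was 0.60 (exact permutation p = 0.12, n = 8), so its passing of the threshold rests on those arrays.

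COR27 followed the other two less closely. COR27 and AT1G56300 had r = 0.62 (permutation p = 0.056, adjusted p = 0.084) and rho = 0.61 (permutation p = 0.066, adjusted p = 0.0996), and r = 0.41 without the arrays of wild type and myb3r1 myb3r4. Without the wild-type seedling alone r was 0.72, with an exact permutation p adjusted over the 3 pairs of 0.045. GI and COR27 had r = 0.43 (permutation p = 0.21, adjusted p = 0.21) and rho = 0.37 (permutation p = 0.30, adjusted p = 0.30), and r = 0.30 without myb3r1 and myb3r1 myb3r4. Over the 10 leaf arrays r was 0.95 for COR27 and AT1G56300, 0.88 for GI and COR27 and 0.77 for GI and AT1G56300. The leaf values are a description, since they follow the groups and the choice of the genes.

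**Figure D4:**
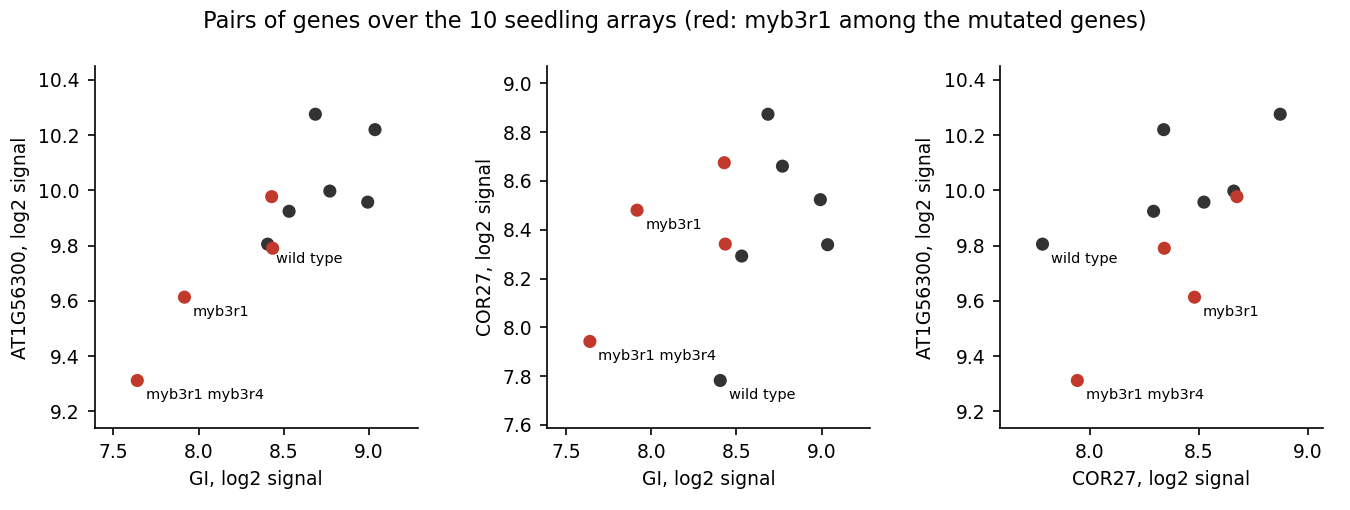
Log2 signal of each pair of genes over the 10 seedling arrays, 1 point per genotype, with red points where myb3r1 is among the mutated genes. The myb3r1 and myb3r1 myb3r4 points lie at the low end of both GI and AT1G56300 (r = 0.88 over all points), and wild type is the lowest point of COR27.

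In the order of all 14 conditions the 5 d triple mutant was lowest for each gene. For GI the next was 5 d wild type, below every seedling, and the highest was the myb3r3 seedling, inside the range of the 15 d wild-type arrays. For COR27 the 15 d triple mutant was highest, and 5 d wild type (213 to 229) enclosed the wild-type seedling, so these neighbours do not differ beyond their spread. For AT1G56300 the range of 5 d wild type (831 to 1143) enclosed 6 of the 10 seedlings, and the myb3r1 myb3r4 seedling was next to last.

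The genes most like each member were taken by the lower of its r over the 10 leaf arrays and its r over the 10 seedling arrays, as a description with no test. Only probe sets with exactly 1 gene name are listed, so more alike probe sets without a name are left out. The named genes most like GI, at ranks 2, 4, 5 and 6 of 17135 probe sets, were AT4G16563 (0.87 in leaves, 0.92 in seedlings), PWD, which encodes a phosphoglucan water dikinase of starch breakdown (0.93 and 0.85), AT5G60680 (0.89 and 0.83) and AT1G21680 (0.90 and 0.83). All 4 had higher 15 d than 5 d means in both genotypes, as GI did, which follows in part from picking them by r over the leaf arrays. AT1G21680 had means of 53.2 in 5 d wild type and 179 in the 5 d mutant, the opposite order to GI. AT4G16563 had 1.95, under the floor, and 54.0, also the opposite order. PWD (837 and 713) and AT5G60680 (635 and 543) were lower in the 5 d mutant. The named genes most like COR27, at ranks 2 to 5, were AT5G16730 (0.85 and 0.77), AT5G26770 (0.76 and 0.83), SEC1B (0.76 and 0.77) and AT3G25990 (0.75 and 0.78). AT5G16730 had means of 91.5 and 61.9 in 5 d wild type and mutant, while AT5G26770 had 58.6 and 56.7, so they did not share the 5 d difference of COR27 in size. SEC1B (28.5 and 32.5) and AT3G25990 (21.4 and 31.2) were not lower in the 5 d mutant. Their 5 d means lay under the floor in both genotypes, so their order there is not read.

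Apart from GI, the named genes most like AT1G56300, at ranks 2, 3, 6 and 8, were AT4G30660 (0.88 and 0.82), AT4G33980 (0.81 and 0.80), AT3G59350 (0.76 and 0.74) and AT5G58510 (0.72 and 0.74). AT4G30660 had means of 1618 in 5 d wild type, 700.0 in the 5 d mutant, 2036 in 15 d wild type and 2680 in the 15 d mutant. It was picked for its r to AT1G56300 over these same leaf arrays, so a shared order of the leaf groups follows in part from the picking. By this measure GI had rank 4 of 17135 for AT1G56300, and AT1G56300 had rank 23 for GI. The lower r of this pair was that of the leaves (0.77). The 5 d arrays that chose both genes enter it, so these ranks follow in part from that choice.

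Of 31 other clock genes listed, 4 had a named probe set: TIC, a clock regulator, SPY, which encodes an O-fucosyltransferase that binds GI, and the loci AT4G33980 and AT5G52660. AT4G33980 had signals of 128 and 52.2 in 5 d wild type. In the mutant it was at 38.9 on 1 array and under the floor on the other. Both mutant arrays lay below wild type, as for 19.1% of tested probe sets. Its 15 d signals were 209, 249.5 and 137 in wild type and 281, 258 and 245 in the mutant, which overlapped. The 5 d log2 differences were -1.19 for AT4G33980, -0.39 for TIC, -0.40 for SPY and 0.23 for AT5G52660, with a median of -0.39 against -0.0041 over all tested probe sets. The value of SPY was -0.70 without mutant replicate 2, the array that stood apart, and -0.10 without mutant replicate 1.

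At 15 d none of the 4 was called higher or lower between genotypes in limma, with or without pairing by number, and their median change was 0.15. The unpaired fit called 0.725% of all tested probe sets higher and 0.0242% lower, so a list this short would mostly hold no call. With age, 3 of the 4 rose over both genotypes, against 31.6% of all tested probe sets, AT4G33980 by 2.05 log2 units (SE 0.28, adjusted p = 0.00019) and TIC by 1.12 (SE 0.24, adjusted p = 0.0029), and SPY had -0.15. The 1 measured clock output gene of 16, AT1G69570, rose with age (adjusted p = 4.1e-06 in limma); it was under the floor on all 5 d arrays, so its log2 change of 2.90 is a lower limit set by the floor. In seedlings none of these 5 was called for any allele term or for the summed terms, where at most 0.132% of all tested probe sets were called in 1 direction. The listed light input genes had no named probe set.

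Of 20 listed cold-regulated genes, 5 were measured, and 2 of these were above the floor on both 5 d wild-type arrays. STZ, which encodes a stress-induced zinc finger protein, and COR15A, a chloroplast protein gene, were under the floor on both 5 d wild-type arrays, and the dehydrin gene LTI30 on 1 of them. Those above it, COR15B and the dehydrin gene COR47, had 5 d log2 differences of -0.12 and -0.14. The floored differences of STZ, COR15A and LTI30 were 1.25, 0.86 and 0.42, and without mutant replicate 2, the array that stood apart, they were 0.72, 0.14 and -0.051. At 15 d the unpaired fit called none of the 5, against 0.725% of all tested probe sets called higher and 0.0242% lower. Their median change was 0.50. COR47 had a 15 d mean of 2235 ± 813 (SD, n = 3) for wild type and 4670 ± 1666 (SD, n = 3) for the mutant (log2 change 1.07, adjusted p = 0.41 in limma). All 15 d mutant arrays of COR47 lay above all wild-type arrays, as for 5.65% of tested probe sets. COR47 was higher in the mutant in all 3 pairs, by 1.15, 0.96 and 1.11 log2 units. With samples paired by number, a pairing taken from the data, it was called higher (adjusted p = 0.028 in limma). That paired fit also called more probe sets over all than the unpaired fit, as given with the 15 d values of AT1G56300. LTI30 had a change of 1.35 (adjusted p = 0.51 unpaired and 0.24 paired). With age 4 of the 5 rose, against 31.6% of all tested probe sets. They were led by STZ at 4.85 (adjusted p = 1.0e-06) and COR15A at 1.97 (adjusted p = 0.00093), whose sizes are lower limits set by the floor in 5 d wild type. In seedlings none of the 5 was called, against at most 0.132% of all tested probe sets in 1 direction for any term.

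**Figure D5:**
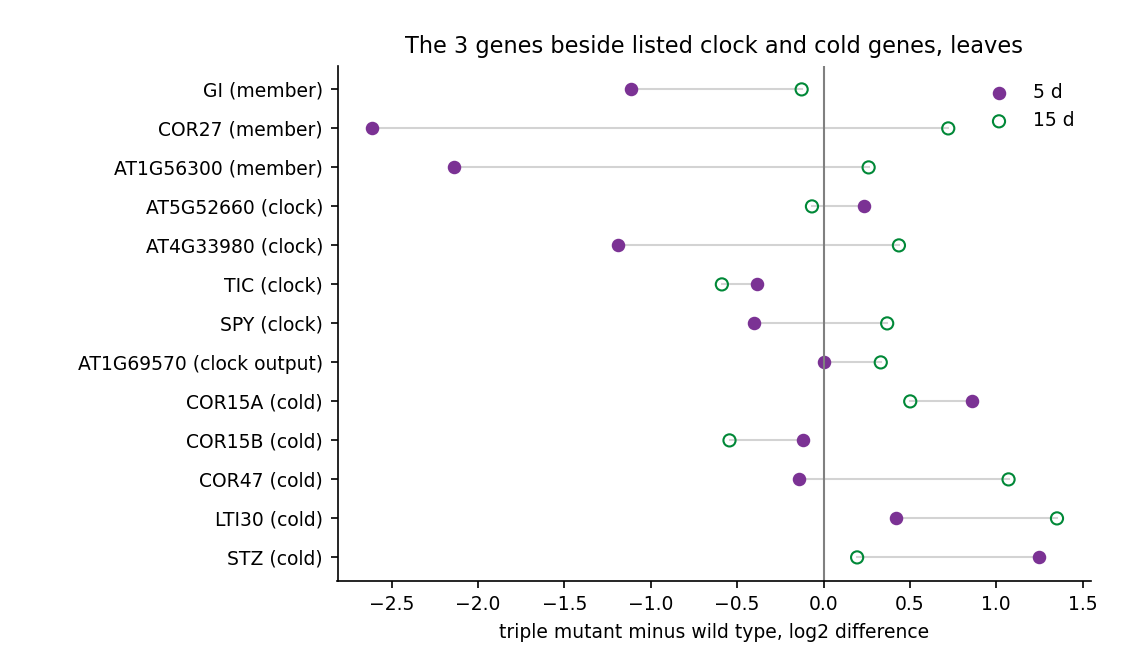
Log2 difference between triple mutant and wild type in 5 d leaves (filled) and 15 d leaves (open) for GI, COR27 and AT1G56300 and for the listed clock, clock output and cold genes with a named probe set. GI, COR27, AT1G56300 and AT4G33980 lie at -1.11 or below at 5 d. STZ, COR15A and AT1G69570 were under the floor on both 5 d wild-type arrays and LTI30 on 1, so their 5 d points could not lie low.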

How the data were processed

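The authors deposited a linear intensity for each probe set of each array, made with MAS5 per the submitters' processing notes (version not given). From these deposited signals log2 values were computed here. The 2% trimmed mean was 500.04 to 500.06 on every array. Each array was scaled to 500, and the floor was the median of the arrays' 25th percentiles. Leaf probe sets above the floor on every array of 1 group or more (16558) and seedling probe sets above it on 1 array or more (19626) were fitted with limma 3.58.1 in R 4.3.3 (group means with 6 residual degrees of freedom; additive allele terms with 5), with a variance trend, two-sided tests and Benjamini-Hochberg adjustment over all tested. Calls are adjusted p under 0.05; the age contrast was fitted for the 3 genes too but is given without a test, since it holds the 5 d mutant arrays. The number of arrays limits the precision. Fits were tested on simulated data. Correlations used 100000 permutations, or all of them for fewer than 10 arrays. Genes were named from the platform table and TAIR10.1 names; the listed DnaJ and flower genes had no named probe set, and no sequence or coordinate is used here.

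The members and lists were chosen with earlier results of these data known. Named genes are the members, the 4 most like each, and per list the 2 largest called rises and falls, or the 2 with the highest signal; other listed values were added after they were seen. Alternatives were no floor, quantile normalization, no or stricter filters, an ordinary linear model, a replicate block, the 15 d arrays alone and leaving out arrays. At 15 d samples of the same number had deviations from the group means correlated at 0.73, 0.60 and 0.57. Samples of different number ran from -0.67 to 0.42, highest for wild-type replicate 3 with mutant replicate 2. At 5 d the same-number value was 0.48, and 2 arrays per group fix the different-number value at its negative. The numbers were taken to pair the samples from these data, not from a label.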

Additional observations from a re-analysis of the deposited data

Results flagged for a closer look

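For COR27 and AT1G56300 each mutant array lay below the wild-type mean at 5 d and above it at 15 d. Neither 15 d change passed the test (adjusted p = 0.46 and 0.79 in limma), and the genotypes overlapped for AT1G56300. The log2 difference between the 15 d and the 5 d effects was 3.34 for COR27 and 2.40 for AT1G56300. The difference was not tested, because the 5 d arrays chose the genes. Of all tested probe sets, 0.809% had every mutant array below every wild-type array at 5 d and above at 15 d, as COR27 did. AT1G56300 overlapped at 15 d and is not among them. The share that meets the looser order, each mutant array against the wild-type mean, was not counted. The 5 d part of that order follows from the choice of the genes.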

How the results depend on the processing

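No call of the 3 genes at 15 d or for an allele term changed under any alternative, and the replicate block changed none of them (COR27 at 15 d, adjusted p = 0.073 with samples paired within age). Of the listed clock and cold genes, COR47 at 15 d was called with that block (adjusted p = 0.028), a value added after seeing the data. Without the floor (log2 of signal + 16) the 5 d differences were -0.93 for GI and -2.22 for COR27. Leaving out 1 array each, the 15 d change of GI ran from -0.33 to 0.027, the myb3r1 term of COR27 from -0.30 to 0.045, its myb3r3 term from -0.14 to 0.29, the myb3r4 term of AT1G56300 from -0.014 to 0.12, the myb3r5 terms of GI and AT1G56300 from -0.068 to 0.31 and from -0.10 to 0.22, and their summed terms from -0.23 to 0.056 and from -0.13 to 0.019. The r of COR27 and AT1G56300 ran from 0.45 to 0.72, where it passed without the wild-type seedling (exact permutation, adjusted p = 0.045), and that of GI and AT1G56300 from 0.77 to 0.93. Calls at 15 d over all probe sets were 779 with the replicate block within each age, 73 with the 15 d arrays alone, 72 to 1310 leaving out 1 array (1310 without mutant replicate 1, 72 and 75 without wild-type replicates 2 and 3), and, added after seeing the data, 1442 and 43 without both arrays numbered 1 or 2. Calls for the myb3r3, myb3r4, myb3r5 and summed terms (1, 3, 0 and 28) were 48, 15, 1 and 293 without the floor and 47, 10, 0 and 229 for those with signals over the floor on 5 seedling arrays or more. Under quantile normalization the myb3r3 and summed terms had 0 and 5. Leaving out 1 seedling array gave 0 to 53, 0 to 3, 0 to 54 and 0 to 7. The causes were not tested. With 1 array per seedling genotype and 2 per 5 d group, signals near the floor of 33.1, as for COR27 in the 5 d mutant, give only a lower limit of the size of a fall.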
